A study of Mus musculus with 6 samples.

Results

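Immunity-related GTPases (IRG) and guanylate-binding proteins (GBP) were examined in purified platelets of Nxf1+/C587R mice, which carry the C587R change on 1 of their Nxf1 alleles, and of wild-type mice. The set comprised 9 genes: the IRG genes Igtp, Irgm1, Irgm2, Iigp1 and Tgtp1 and the GBP genes Gbp2, Gbp3, Gbp7 and Gbp9. It was chosen by the rise of Igtp in mutant platelets, around which the rest of the family was gathered. Of these, 8 were among the 9822 genes with deposited counts, and Iigp1 is not analysed here. Because the mutant against wild-type contrast chose the set, the values of the 8 members in that contrast are given as a description, and nothing is read from how many passed a test.

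Both groups were platelets of male mice of the BalB/c strain background, and the controls, first deposited with another series, are described as littermates of the mutants. Nxf1 encodes the main mRNA export receptor, and the wild-type mice carry no labelled allele. Each of the 6 libraries, 3 per genotype, is a pool of platelet suspensions, each with over 98% of events positive for the platelet surface protein CD41. The labels place 1 mutant and 1 wild-type pool in each of batches 1, 2 and 3, and the design text speaks of 3 preparation days, without saying that a batch is a day. The sources used here give neither the number of animals per pool nor their age, and nothing states that pools of different batches came from different animals. The p-values therefore measure the spread between these pools.

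IRG and GBP proteins are large GTPases that mouse cells make in quantity after exposure to interferon gamma. They gather on vacuoles that hold intracellular parasites and bacteria, and help to break these open. The IRG family has a regulatory branch (Igtp, also called Irgm3, with Irgm1 and Irgm2), whose proteins sit on host membranes and keep the effector branch (Tgtp1, Iigp1 and relatives) from acting there. Platelets have no nucleus, so their mRNA is mostly inherited from the megakaryocyte.

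Libraries held 25189231 to 29421549 counts. Levels are given as CPM, counts scaled to the library total after TMM scaling between libraries. The 13 platelet markers summed to between 35218 and 49377 CPM, the 13 B cell markers to between 337 and 552, the 10 T and NK cell markers tested to between 22.8 and 28.1, and the 7 myeloid markers tested to between 1166 and 2094. The 7 erythroid markers tested summed to 31535 and 35726 CPM in the mutant and wild-type libraries of batch 1 and to between 3989 and 4577 in the other libraries, so batch 1 stood apart. Nxf1 itself had a mean of 3.29 CPM (SD 0.894) among mutant libraries and of 3.73 CPM (SD 1.05) among wild-type ones. Its level does not check the labels, since the allele is a missense change.

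Igtp lies on chromosome 11 (58199556 to 58207592, mm10, plus strand) between 2 other IRG genes: Gm12250, also called Irgb10, ends 9357 bases before it, and Irgm2 (58214977 to 58222783) begins 7384 bases after it. Irgm1 (48865245 to 48871420) and Tgtp1 (48985329 to 48992246) lie in another cluster of the same chromosome. Gbp7, Gbp3 and Gbp2 lie in a cluster on chromosome 3 (142530336 to 142638008), where Gbp2b starts between Gbp3 and Gbp2. Gbp9 lies on chromosome 5 (105076464 to 105110357). All 8 members are protein-coding. Transcripts of the IRG members have up to 3 exons in GENCODE M21, or up to 4 for Igtp, and those of the GBP members have up to 11, or 12 for Gbp3.

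The 250 bases before the start of Igtp and of its IRG neighbours are shown because the 3 genes lie together and yet differed in level and in direction. The sequences come from RefSeq (GRCm38.p6, the assembly of mm10, plus strand, chr11:58199306-58199555, chr11:58214727-58214976 and chr11:58183593-58183842). Capitals mark matches to the core of the interferon-stimulated response element, GAAANNGAAA on either strand, and to the gamma-activated site, TTCNNNGAA, which reads the same on both strands.

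Igtp: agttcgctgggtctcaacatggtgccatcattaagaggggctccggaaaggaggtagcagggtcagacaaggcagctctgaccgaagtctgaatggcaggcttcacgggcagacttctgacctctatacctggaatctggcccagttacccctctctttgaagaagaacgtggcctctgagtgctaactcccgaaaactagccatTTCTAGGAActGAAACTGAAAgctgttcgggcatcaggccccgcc
Irgm2: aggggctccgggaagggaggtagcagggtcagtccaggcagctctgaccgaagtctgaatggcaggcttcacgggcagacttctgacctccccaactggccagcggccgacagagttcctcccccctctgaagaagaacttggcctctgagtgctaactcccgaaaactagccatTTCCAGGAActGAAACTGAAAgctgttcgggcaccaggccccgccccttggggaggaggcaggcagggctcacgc
Gm12250: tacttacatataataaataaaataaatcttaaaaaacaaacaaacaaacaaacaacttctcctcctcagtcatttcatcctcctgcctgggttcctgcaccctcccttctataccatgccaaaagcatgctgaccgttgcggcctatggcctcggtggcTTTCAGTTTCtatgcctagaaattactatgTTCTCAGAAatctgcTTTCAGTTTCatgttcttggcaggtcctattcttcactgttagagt

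The windows of Igtp and Irgm2 are near copies of each other, with 194 identical bases in 220 aligned columns (88.2%). Each holds a gamma-activated site match followed, after 2 bases, by a response element match. Counted back from the base before the start (-1), the response element match lies at -34 to -25 in Igtp and at -64 to -55 in Irgm2. Only the printed strands were aligned. On these Gm12250 is unlike both, with a best-scoring local match to Igtp of 13 columns. Its window holds the response element core on the other strand at -91 to -82 and -46 to -37, and a gamma-activated site match between them. Of 7 members with an upstream window in the table, 7 held the response element core and 4 (Igtp, Irgm2, Tgtp1 and Gbp7) held both motifs. For Gbp3 the core was in 1 of its 2 windows. Among 32851 promoter entries of the same length, 2.98% held the core, 7.02% the gamma-activated site and 0.332% both. A match describes letters only and does not show that a factor binds.

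Igtp was far more abundant than every other member. Levels were compared per kilobase of the gene length deposited with the counts. In wild-type platelets Igtp stood at 306 ± 26.9 CPM per kb, 163-fold above Tgtp1, the next member, at 1.88 ± 0.218 CPM per kb (SD, n = 3). It ranked 201st of 9822 genes on this scale in wild-type and 101st in mutant platelets. Below Tgtp1 came Irgm2 (1.14 ± 0.222 CPM per kb), Gbp2 (1.06 ± 0.170), Irgm1 (0.982 ± 0.309), Gbp9 (0.758 ± 0.0801), Gbp7 (0.497 ± 0.0795) and Gbp3 (0.484 ± 0.107). The wild-type libraries of neighbours in this order overlapped, except between Igtp and Tgtp1, Tgtp1 and Irgm2, and Gbp9 and Gbp7. In mutant platelets Igtp stood at 712 ± 27.9 CPM per kb, 448-fold above Irgm2 (1.59 ± 0.281 CPM per kb). There Irgm2 came ahead of Tgtp1 (1.44 ± 0.147), but the mutant libraries of Irgm2 and Tgtp1 overlapped. Irgm2 was far below Igtp in both genotypes, and whether the upstream bases bear on the level was not tested.

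**Figure D1:**
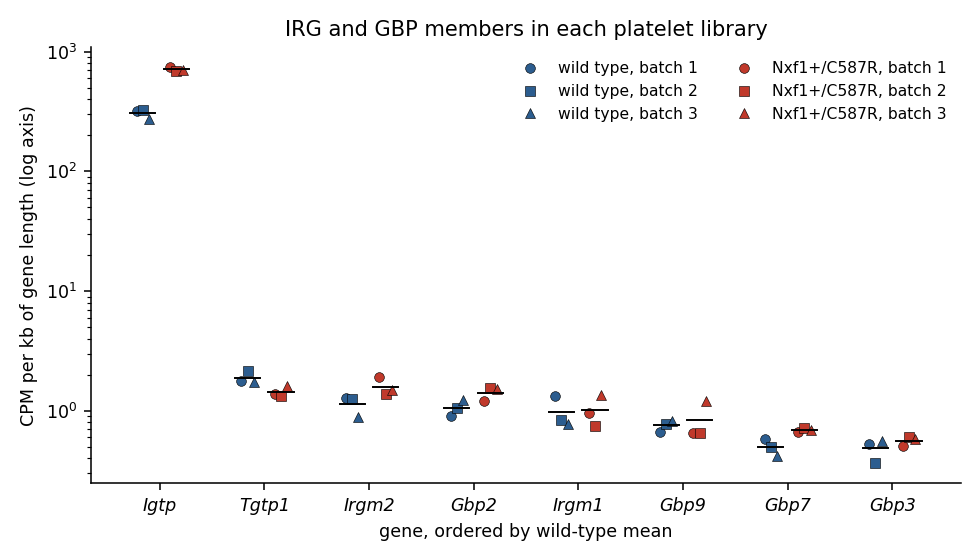
Level of each member in each library in CPM per kb of gene length (log axis), by gene in order of the wild-type mean. Blue points are wild-type and red points mutant libraries, the point shape gives the batch, and black bars are group means. Igtp lies at 306 and 712 CPM per kb, while the means of the other 7 members lie between 0.484 and 1.88 CPM per kb in either genotype.

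In the regulatory branch, Igtp was at 648, 653 and 556 CPM in the wild-type libraries of batches 1, 2 and 3 and at 1503, 1392 and 1429 CPM in the mutant libraries. Every mutant library lay above every wild-type library, and the spread within a genotype was small beside the gap. These levels rest on 15710 to 40307 counts per library. The group means were 619 ± 54.5 and 1441 ± 56.4 CPM (SD, n = 3 each), a log2 fold change of 1.22 ± 0.12 (SE). Within batches 1, 2 and 3 the mutant library exceeded the wild-type library by 1.21, 1.09 and 1.36 on the log2 scale. As a share of deposited counts, before any scaling between libraries, Igtp took 0.0635 ± 0.00214% in wild-type and 0.140 ± 0.00871% in mutant platelets. Among the 782 genes whose mean level reached 100 CPM, 3 had a larger log2 fold change: the kinase gene Nlk (1.40), Pdk1 (1.36), which encodes an inhibitory kinase of pyruvate dehydrogenase, and the serotonin transporter gene Slc6a4 (1.25). Among all 9822 genes, 45 had a larger one.

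Irgm2, a regulator found on Golgi membranes, was at 4.52, 4.37 and 3.10 CPM in the wild-type libraries of batches 1, 2 and 3 and at 6.71, 4.86 and 5.19 CPM in the mutant libraries. The genotypes did not overlap, but the highest wild-type library (4.52) lay close to the lowest mutant library (4.86). The log2 fold change was 0.49 ± 0.18 (SE), and the differences within batches were 0.52, 0.14 and 0.66. Without the mutant library of batch 1 it was 0.29. An annotated Irgm2 transcript in GENCODE starts within the first exon of Igtp and shares 162 exon bases with it (58199618 to 58199779). Of windows of 50 bases along the longest Igtp transcript, 12.3% also occurred in Irgm2, and 6.29% of those of Irgm2 occurred in Igtp. How reads that match both genes were counted is not stated, so Irgm2, with 96 to 180 counts per library beside a neighbour of 15710 or more, is uncertain.

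Irgm1, a regulator linked to autophagy, was at 2.98, 1.87 and 1.71 CPM in the wild-type libraries of batches 1, 2 and 3 and at 2.13, 1.67 and 3.04 CPM in the mutant libraries. The genotypes overlapped fully, and the mutant library was the higher one in batch 3 alone. Its log2 fold change was 0.07 ± 0.25 (SE), and it moved between -0.34 without batch 3 and 0.37 without batch 1. None of its windows of 50 bases occurred in another gene, so its counts of 41 to 82 per library are low but not shared in that sense.

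Tgtp1 (Irgb6), of the effector branch, ran the other way. It was at 4.95, 5.99 and 4.91 CPM in the wild-type libraries and at 3.88, 3.76 and 4.52 CPM in the mutant libraries of batches 1, 2 and 3. All mutant libraries lay below all wild-type libraries, with a log2 fold change of -0.38 ± 0.16 (SE) and differences within batches of -0.32, -0.61 and -0.11. Its neighbour Tgtp2 is a near-identical copy, and 89.4% of the 50-base windows of Tgtp1 also occurred in Tgtp2. Tgtp2 had -0.34 ± 0.21 (SE, adjusted p = 0.273 by edgeR). The split of counts between the copies is uncertain.

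Among the GBP members, which form coats on vacuoles and bacteria, Gbp7 and Gbp2 were the higher ones in every mutant library of a batch pair. Gbp7 was at 3.21, 2.74 and 2.33 CPM in the wild-type and 3.65, 3.96 and 3.86 CPM in the mutant libraries of batches 1, 2 and 3. The genotypes did not overlap, and the log2 fold change was 0.47 ± 0.18 (SE). Gbp2 was at 2.20, 2.58 and 3.04 CPM in the wild-type and 2.95, 3.798 and 3.71 CPM in the mutant libraries. The lowest mutant library lay below the highest wild-type library, and the log2 fold change was 0.41 ± 0.19 (SE), or 0.27 without the wild-type library of batch 1.

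Gbp3 and Gbp9 showed little difference by genotype. Gbp3 was at 1.39, 0.956 and 1.49 CPM in the wild-type and 1.34, 1.59 and 1.52 CPM in the mutant libraries, on 23 to 46 counts, with a log2 fold change of 0.20 ± 0.24 (SE). Gbp9 was at 2.43, 2.83 and 3.00 CPM in the wild-type and 2.35, 2.37 and 4.41 CPM in the mutant libraries. The mutant library of batch 3 alone stood above the wild-type range, and without it the log2 fold change of Gbp9 went from 0.14 ± 0.23 (SE) to -0.23. Between 2.07% (Gbp2) and 12.8% (Gbp7) of the 50-base windows of the 4 GBP members occurred in another gene.

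Of the 8 members, 1 (Igtp) passed edgeR's quasi-likelihood test at 0.05 after adjustment over all genes (Benjamini-Hochberg), beside 22.1% of all genes tested. With the batch as a block 4 were higher and 1 lower by edgeR, beside 40.0% of all genes. By DESeq2 with the same block Igtp alone passed. The genotypes did not overlap for 4 of the 8, beside 36.3% of all genes. These counts are a description, since the set was chosen from this contrast.

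**Figure D2:**
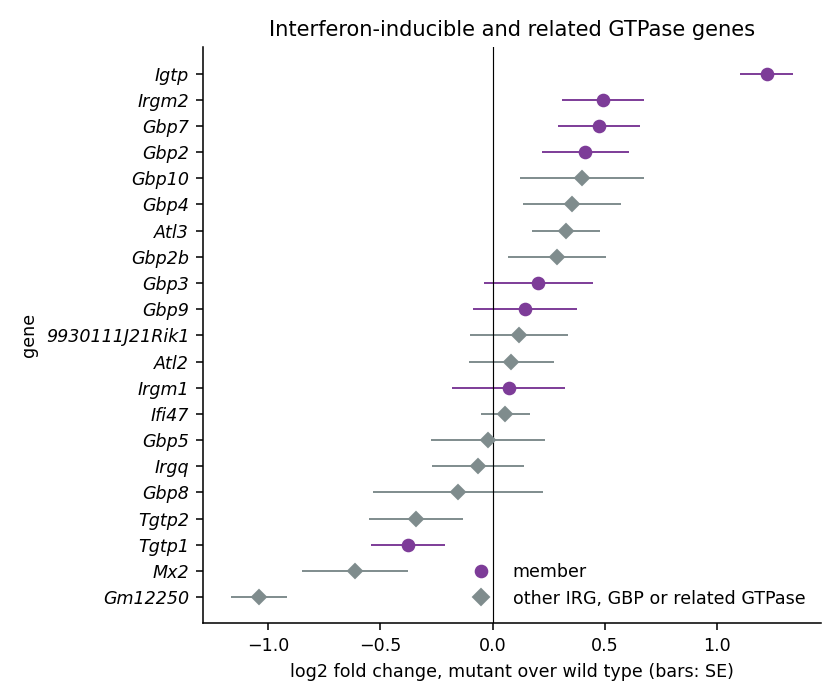
Log2 fold change of mutant over wild-type platelets with its SE for the 8 members (purple circles) and 13 other IRG, GBP or related GTPase genes (grey diamonds), sorted by value. Igtp lies at 1.22 and its neighbour Gm12250 at -1.04, and all other genes lie between -0.61 (Mx2) and 0.49 (Irgm2).

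The labelled batch was not used to choose the members, so it could be tested. In a fit with batch and genotype, 1 of the 8 members differed between batches, Gbp9 (adjusted p = 0.0122 by edgeR), beside 24.5% of all genes. That call was lost without batch 1 (0.0772) and without batch 3 (0.888). Irgm2 (0.0519), Irgm1 (0.144), Gbp2 (0.219), Igtp (0.376), Gbp7 (0.757), Gbp3 (0.777) and Tgtp1 (0.797) did not pass. Igtp and Irgm2 passed with RLE size factors (0.0313 and 0.0198), Irgm2 also without batch 2 (0.0330), and Gbp2 passed with library size alone (0.0205).

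The nearest gene to Igtp on its other side fell. Gm12250 (Irgb10, Entrez 631323, an effector IRG known for attacking the membranes of vacuoles and bacteria) was at 19.6, 17.1 and 19.9 CPM in the wild-type libraries of batches 1, 2 and 3 and at 9.58, 8.45 and 9.49 CPM in the mutant libraries. The genotypes were far apart and the libraries within each close together. It fell from 18.9 ± 1.54 to 9.18 ± 0.627 CPM (SD, n = 3 each), a log2 fold change of -1.04 ± 0.13 (SE, adjusted p = 6.94e-06 by edgeR). The differences within batches were -0.995, -0.974 and -1.03. RefSeq lists Gm12250 as protein-coding, while GENCODE M21 lists a processed pseudogene of 1 exon inside that span (58187739 to 58189012). None of the 50-base windows of that 1274-base exon occurred in another gene. The rest of the 2702-base gene length deposited with the counts was not checked.

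No other neighbour passed the test. Of the 8 tested genes other than Igtp and Irgm2 that start within 250 kb of Igtp, Gm12250 alone was called. With the batch as a block it was again the only one. Over all genes 22.1% were called, and 40.0% with the block. Those not called had group means from 0.607 (Zfp692, wild type) to 9.08 CPM (Cnot8, wild type), which limits precision. Mrpl22, a mitochondrial ribosomal protein gene (-0.08 ± 0.23, SE), Gemin5 (-0.13 ± 0.27), the deadenylase gene Cnot8 (-0.08 ± 0.14), Larp1 (-0.03 ± 0.18) and Sh3bp5l (-0.12 ± 0.22) lay near 0 on the log2 scale. Zfp692 (0.43 ± 0.30, adjusted p = 0.352 by edgeR) and Zfp672 (-0.51 ± 0.26, adjusted p = 0.187) overlap by 32 bases. Reads there cannot be told apart without strand, and the library kit does not mark it.

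**Figure D3:**
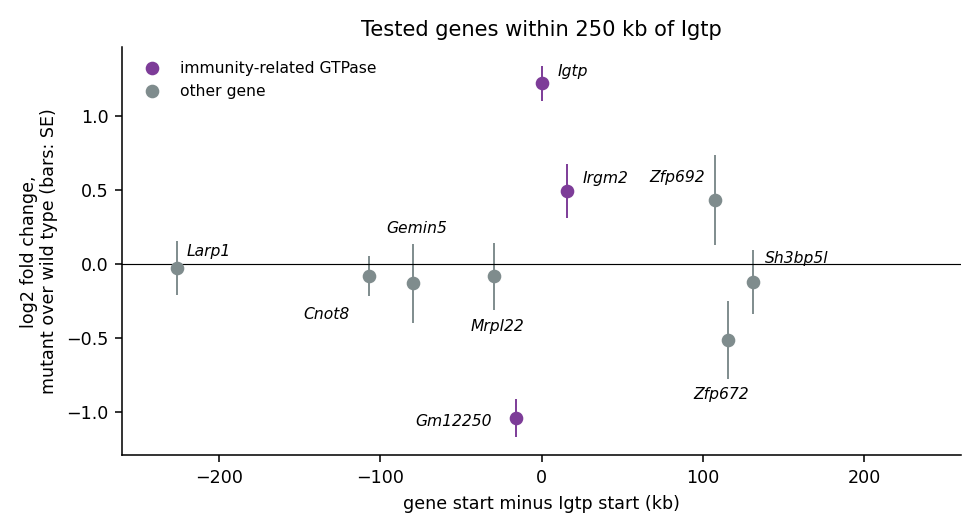
Log2 fold change of mutant over wild-type platelets with its SE for the 10 tested genes whose start lies within 250 kb of that of Igtp, by distance in kb. Purple points are IRG genes and grey points other genes. Igtp (1.22) and Irgm2 (0.49) lie above 0 and Gm12250, just upstream, at -1.04, while the other 7 genes lie between -0.51 and 0.43.

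Of 24 other IRG, GBP, Mx and atlastin genes listed, 13 were tested, of which 0 rose, 1 fell (Gm12250) and 12 did not pass. Among all genes tested, 12.9% were higher and 9.16% lower. The median log2 fold change of the 13 was 0.06, beside -0.04 for all genes. With the batch as a block 2 were higher (Gbp4 and Atl3) and 2 lower (Gm12250 and Mx2) by edgeR, while DESeq2 with the same block gave 0 higher and 1 lower. Ifi47, the IRG gene also called Irgd, was at 23.5 CPM over all libraries and differed by 0.06 ± 0.11 (SE, adjusted p = 0.770 by edgeR).

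The receptors and signalling genes upstream of the family were next examined. Interferon gamma binds Ifngr1 and Ifngr2, which signal through the kinases Jak1 and Jak2, and Irf1 is a transcription factor gene induced downstream. Both receptor genes were scarce. Ifngr1 was at 0.657 to 0.937 CPM in wild-type and 0.653 to 0.820 CPM in mutant libraries (log2 fold change -0.09 ± 0.29, SE). Ifngr2 was at 0.657 to 1.04 CPM in wild-type and 0.653 to 0.708 CPM in mutant libraries (-0.25 ± 0.29, SE). At this depth, with 16 to 29 counts per library, differences of that size were not detectable. The type I receptor genes Ifnar1 (0.28 ± 0.15, SE, adjusted p = 0.199 by edgeR) and Ifnar2 (0.20 ± 0.23, adjusted p = 0.593) did not pass, and Ifnar1 passed with the batch as a block by edgeR (0.0313) but not by DESeq2 (0.258).

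Jak2, which also transmits thrombopoietin signals in megakaryocytes, was the gene of this list that rose. It was at 147, 129 and 113 CPM in the wild-type libraries of batches 1, 2 and 3 and at 206, 181 and 196 CPM in the mutant libraries, with no overlap. The rise from 130.0 ± 16.9 to 194 ± 12.2 CPM (SD, n = 3 each) was 0.58 ± 0.12 on the log2 scale (SE, adjusted p = 0.00131 by edgeR). Jak1 (-0.16 ± 0.11, SE, adjusted p = 0.329 by edgeR) did not pass, and it passed with the batch as a block (0.0444). Jak1 also passed among genes of at least 10 CPM (-0.33, adjusted p = 0.00161 by edgeR) and without batch 3 (0.0372), and its span shares 397 bases with Raver2. Irf1 had 0.05 ± 0.19 (SE, adjusted p = 0.877 by edgeR). Of 23 genes listed 21 were tested, of which 1 rose, 0 fell and 20 did not pass, beside 12.9% of all genes higher and 9.16% lower. The median was -0.09, and with the batch as a block 3 were higher and 2 lower, beside 40.0% of all genes called.

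Of 69 other genes induced by interferon 59 were tested, of which 4 rose, 5 fell and 50 did not pass (8 higher and 11 lower with the batch as a block). Over all genes 22.1% were called, and 40.0% with the block. The list's median log2 fold change was -0.05, beside -0.04 for all genes. Lgals3bp, a secreted galectin-binding protein gene, was at 72.7, 72.8 and 80.7 CPM in wild-type and at 116, 120 and 124 CPM in mutant libraries, and rose by 0.67 ± 0.11 on the log2 scale (SE, adjusted p = 0.000174 by edgeR). B2m, the light chain of MHC class I, rose by 0.57 ± 0.14 (adjusted p = 0.00618). That call was lost without mutant replicate 1 or 2 and without batch 1 or 2, with an adjusted p of up to 0.144.

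Samd9l and Ifit1 were among the falls. Samd9l, an antiviral restriction factor gene, was at 11.98, 10.2 and 11.9 CPM in wild-type and at 4.92, 5.02 and 5.82 CPM in mutant libraries, with no overlap (-1.11 ± 0.14, SE, adjusted p = 1.48e-05 by edgeR). Ifit1, whose protein binds RNA that lacks the host cap, was at 9.35, 8.81 and 5.59 CPM in wild-type and 4.18, 4.04 and 3.82 CPM in mutant libraries (-0.97 ± 0.18, adjusted p = 0.000651). The wild-type library of batch 3 was the lowest of its group and still above all mutant libraries. The span of Ifit1 lies wholly within that of Ifit1bl1 (9121 shared bases), so its counts are uncertain.

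**Figure D4:**
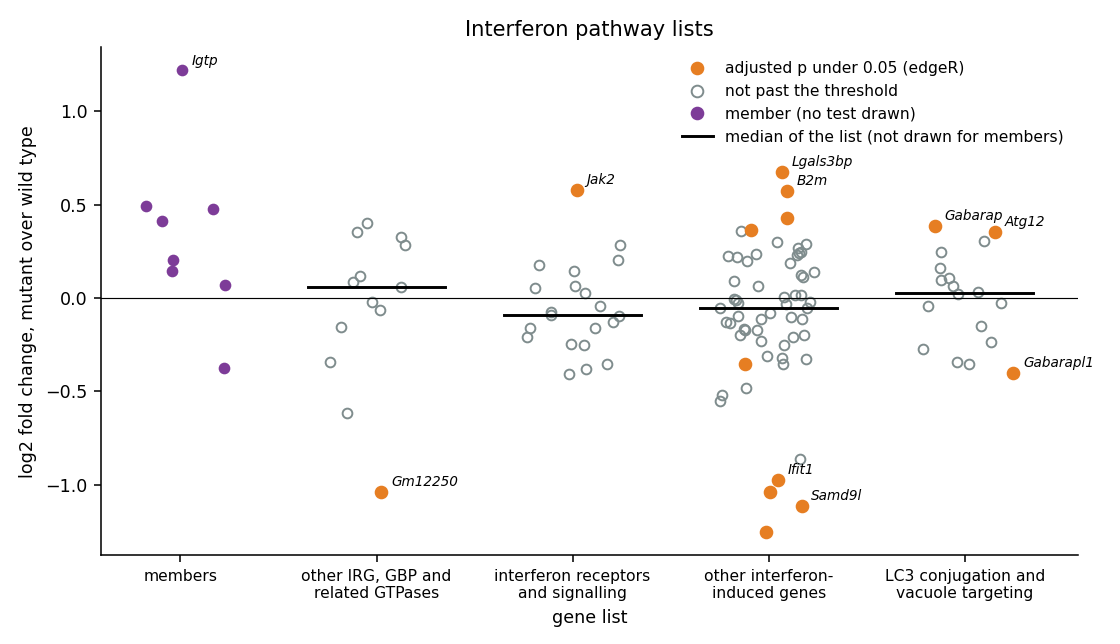
Log2 fold change of mutant over wild-type platelets for each gene of the members and of 4 pathway lists, with points spread sideways for view. Orange points passed the edgeR test at an adjusted p of 0.05, open grey points did not, purple points are members, and black lines are list medians. The 4 list medians lie between -0.09 and 0.06, while Igtp lies at 1.22 and Gm12250 at -1.04.

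GBP and IRG proteins are steered to vacuoles by the ubiquitin-like LC3 and GABARAP proteins and the enzymes that attach them to lipid. Of 18 genes listed for LC3 conjugation and vacuole targeting 2 rose, 1 fell and 15 did not pass, with a median of 0.03. With the batch as a block 5 were higher and 4 lower. Besides those proteins and enzymes the list holds Sqstm1, Traf6, Becn1, Ulk1, Rnf213, Ubqln1 and Calcoco1. Rnf213 is also in the list of interferon-induced genes. The LC3 genes counted further below are those of this list. Over all genes 12.9% were higher and 9.16% lower, and 40.0% were called with the block. Gabarap rose from 70.7 ± 7.11 to 92.2 ± 2.11 CPM (SD, n = 3 each; 0.38 ± 0.11, SE, adjusted p = 0.0190 by edgeR). Its relative Gabarapl1 fell from 665 ± 76.8 to 503 ± 22.5 CPM (-0.40 ± 0.12, adjusted p = 0.0178). Atg12, part of the conjugating complex, rose by 0.36 ± 0.12 (adjusted p = 0.0377). The spans of Gabarapl1 and Atg12 share 93 and 31 bases with another tested gene. These calls were lost with an adjusted p of up to 0.247 (Gabarap, without mutant replicate 1 or 2, wild-type replicate 1, or batch 1 or 2), 0.219 (Gabarapl1, without mutant replicate 1 or 3, wild-type replicate 2, or batch 1 or 2) and 0.328 (Atg12, without mutant replicate 1 or 2, any wild-type replicate, or batch 1 or 2). The Atg12 call was also lost with RLE factors (0.0665) and without the 10 most abundant genes (0.0865). With only genes of at least 10 CPM the log2 fold changes were 0.22 (Gabarap), 0.19 (Atg12) and -0.56 (Gabarapl1). Each of these still passed by edgeR.

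Genes whose levels tracked Igtp most closely were sought among 3016 genes whose mean level reached 10 CPM, by Pearson's r of log2(CPM + 0.5) over the 6 libraries. These were Fmo5 (r = 0.999), Slc6a4 (0.998), Eloa (0.998), Madd (0.998) and Ceacam1 (0.998). Genes with r above 0.95 numbered 481, and the 6 libraries share the genotype split. Slc6a4 had a log2 fold change of 1.25, Ceacam1 0.86, Fmo5 0.74, Madd 0.48 and Eloa 0.24.

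After TMM scaling, marker sums of platelets, B cells and myeloid cells differed by genotype without overlap. Those of T and NK cells and of erythroid cells overlapped. The platelet markers summed to 35218 to 42559 CPM in wild-type and 44725 to 49377 CPM in mutant libraries, without overlap, and 6 of 13 rose while 2 fell. The B cell markers summed to 429, 424 and 552 CPM in wild-type and 337, 349 and 412 CPM in mutant libraries of batches 1, 2 and 3, without overlap, and 6 of 13 fell. The myeloid markers tested summed to 1353, 1606 and 1166 CPM in wild-type and 1783, 2094 and 1916 CPM in mutant libraries, also without overlap, and 1 of 7 rose, Lyz2. Lyz2 alone had a mean of 1636 CPM over the 6 libraries, so the sum is nearly that gene, and the other 6 markers had means of 0.589 to 8.20 CPM. The T and NK cell markers tested summed to 22.8, 24.4 and 28.1 CPM in wild-type and 24.6, 24.6 and 25.9 CPM in mutant libraries. Of these, 0 of 10 passed. The erythroid markers tested summed to 35726, 4316 and 4438 CPM in wild-type and 31535, 3989 and 4577 CPM in mutant libraries, and 1 of 7 rose. Among all genes tested, 12.9% were higher and 9.16% lower, and 36.3% did not overlap between the genotypes, a share for single genes and not for sums. No marker tested was at 0 in any library, but all listed genes exceed 0.5 CPM in 3 or more libraries, so this shows little. The markers Cd3e, Prf1, Klrb1c, Ly6g, Cd14, Ngp, Camp, Mpo, Hbb-bt, Ahsp and Klf1 were not among the genes with deposited counts. Beside these markers, the 7 members other than Igtp summed to 19.6 to 21.7 CPM in wild-type and 22.0 to 26.3 CPM in mutant libraries. All these sums rest on TMM factors from 0.912 (mutant library of batch 1) to 1.19 (wild-type library of batch 3). On library totals alone the genotypes overlapped in the B cell sums and in the member sums, while platelet and myeloid sums stayed apart. There the B cell sum of the mutant library of batch 3 lay above those of wild-type batches 1 and 2. The member sum of the wild-type library of batch 3 lay above those of mutant batches 1 and 2. Tgtp1 within the member sums was lower in the mutant. The part of leukocyte RNA in the values of the members, Igtp included, was not tested, and in pooled platelets fewer cells of a type and less RNA per cell cannot be told apart.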

How the data were processed

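PolyA RNA of pooled platelet suspensions was sequenced. Per the file headers, the deposited values are counts by gene (whole numbers) beside a gene length. CASAVA 1.8.2, Subread, featureCounts and mm10 are named in the submitters' processing notes. The sources used here give no strand or multi-mapping setting. The values show that all listed genes exceed 0.5 CPM in 3 or more libraries. Of 9822 Entrez identifiers, 9636 were named from RefSeq (GRCm38.p6), and exons come from GENCODE M21. The main test was that of edgeR 4.0.16 under R 4.3.3 (TMM scaling, robust quasi-likelihood, genotype as the only term, two-sided, Benjamini-Hochberg at 0.05), and filterByExpr removed 0 genes. The SE is the log2 fold change divided by the square root of F. Also run were a fit by DESeq2 1.42.0, one by limma-voom (limma 3.58.1), other scalings, a minimum mean of 10 CPM, the 10 most abundant genes left out, each library or batch left out, and the batch as a block. The fits were tested on simulated data.

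The batch pairs the libraries per the labels, and deviations from group means correlated at 0.520, 0.350 and 0.547 within batches and at most at -0.0358 between them. Libraries of the same genotype differed by more than sampling noise (mean chi-square per gene of at least 14.5). Members and lists were chosen with earlier results of these data known. Named were all members, up to 4 called genes per list by smallest p, genes starting within 250 kb of Igtp, 8 signalling genes (1 of which is not reported here) and the 5 genes most like Igtp. Tgtp2, Ifi47, Gbp4, Atl3, Mx2, Lyz2, Nlk and Pdk1 were named after their values were seen.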

Additional observations from a re-analysis of the deposited data

How the results depend on the processing

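The log2 fold change of Igtp lay between 1.06 and 1.24 over 18 alternatives. The lowest value came with only genes of a mean of at least 10 CPM, where TMM scaling shifted the median of those genes by -0.17, and Igtp less that median was 1.07 under TMM and 1.08 there. The direction held in all alternatives run for Igtp, Irgm2, Tgtp1, Gbp2, Gbp7 and Gm12250, and Irgm1, Gbp3 and Gbp9 changed sign in some. Counts of genes called moved most with the replicate block by edgeR, to 3929 (2164 higher, 1765 lower) from 2166. With that block the lists gave 2 higher and 2 lower (family), 3 and 2 (signalling), 8 and 11 (interferon-induced) and 5 and 4 (LC3), and by DESeq2 with the replicate block they gave 0 and 1, 1 and 1, 6 and 6, and 4 and 2. With only genes of at least 10 CPM, 1478 genes were called (723 higher, 755 lower), among them 1 signalling gene lower and 4 LC3 genes lower. Upper-quartile factors and library size alone gave 2 LC3 genes lower, and RLE factors or leaving out the 10 most abundant genes gave 1 higher. Leaving out a library or batch gave 1005 to 2396 genes called (485 to 1388 higher, 520 to 1008 lower), the fewest without batch 2. In those fits the family list had 0 higher and 1 lower throughout, signalling 1 higher and 0 to 1 lower, interferon-induced genes 1 to 6 higher and 2 to 7 lower, LC3 genes 0 to 3 higher and 0 to 2 lower, and Igtp 1.14 to 1.24. Members differing between batches numbered 3 with RLE factors, 2 with library size alone, 0 of 3 with an adjusted p by DESeq2 and 0 of 1 above 10 CPM, and 0 to 2 with a batch left out. The cause of these changes was not tested. Levels of 1 to 7 CPM limit the precision for all members but Igtp.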
